A study of Homo sapiens with 27 samples.

Results

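Lysosomal hydrolases, lysosomal membrane proteins and subunits of the vacuolar proton pump (V-ATPase) were followed by RNA level in DLD1 cells, an established human colorectal carcinoma line, after depletion of the VPS37 paralogs. The genes were chosen by symbol from a list of 46 lysosomal genes, set with earlier results of these data known. The deposited table lists 45 of them among its 10470 genes. They comprise 23 hydrolases and hydrolase cofactors, 7 membrane proteins and 15 V-ATPase genes. The lipid-binding protein NPC2 is counted with the 23. TMEM55B was not found under that symbol and was not analysed here. Of the 45 listed genes, 41 had a mean of at least 10 TPM, a share of transcripts scaled to 1000000 in each library, over all 27 libraries and were tested, and HEXA, GUSB, CLCN7 and ATP6V1F lay below that level.

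Lysosomes degrade proteins, glycans and lipids with soluble hydrolases that work at acid pH. The V-ATPase provides this pH: its cytosolic V1 sector hydrolyses ATP, its membrane V0 sector carries protons, and accessory subunits assist assembly. Many lysosomal genes carry an E-box of the sequence CACGTG near their start, to which transcription factors of the TFEB family bind. VPS37A, VPS37B and VPS37C are alternative subunits of ESCRT-I, a complex that sorts ubiquitinated membrane proteins into multivesicular endosomes on their way to the lysosome.

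The study asked how transcript levels respond to the loss of 1, 2 or all 3 paralogs. The 27 libraries formed 9 groups of 3: untransfected cells (NT), cells given non-targeting siRNAs (siCTRL#1), and cells given siVPS37A#1, siVPS37B#1 or siVPS37C#1 singly, in the pairs AB, AC and BC, or all together (ABC). Cells were collected 72 h after transfection, and each paralog was targeted by 1 siRNA sequence, so off-target effects of a sequence cannot be told apart from loss of the paralog. Replicates are biological per the labels, whose batch number equals the replicate number, and both NT and siCTRL are named as references. The suffix #1 is dropped below, and the groups are written siCTRL, siVPS37A, siVPS37AB, siVPS37ABC and so on.

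The targeted RNAs were low in the libraries labelled for them. From siCTRL to siVPS37ABC the mean went from 5.80 to 0.42 TPM for VPS37A, from 46.4 to 3.44 TPM for VPS37B and from 17.5 to 3.98 TPM for VPS37C. Of 9 epithelial markers 8 had a mean of at least 10 TPM, VIL1 being the exception, and their summed level ranged from 8358 to 9549 TPM in siCTRL and from 10168 to 11567 TPM in siVPS37ABC, without overlap. The NT sums, 8543 to 11563 TPM, spanned both. Keratins and EPCAM make up most of the sum. CDX2 went the other way, with means of 155 TPM in siCTRL and 63.4 TPM in siVPS37ABC, as did the low VIL1 (2.12 and 1.16 TPM). The part of that shift in the lysosomal values was not tested. In bulk RNA a changed share of cells of a type and a changed RNA level per cell cannot be told apart. The 3 listed leukocyte markers (CD14, CD68, CSF1R) were each under 10 TPM, with overlapping sums of 8.40 to 11.7 TPM in siCTRL and 10.3 to 12.3 TPM in siVPS37ABC. Within that sum the means of CD14 went from 7.75 to 3.63 TPM, of CD68 from 2.41 to 5.78 TPM and of CSF1R from 0.095 to 1.87 TPM. Depth, estimated from the steps between low values, ran from 4910000 to 22350000 reads, with the median library at 8000000 reads. At that depth ATP6V1F rested on 8 to 50 reads per library and HEXA on 35 to 200. Among the tested genes CTSC rested on 60 to 415 reads, against 168 to 1106 for NEU1 and 3002 to 19043 for PSAP. Each gene was read through 1 amplicon, so levels are compared between libraries and not between genes.

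With all 3 paralogs depleted, 10 of the 41 tested lysosomal genes rose and 1 fell against siCTRL. The genes that rose were the hydrolases NEU1, GLA, CTSZ and CTSD, the hydrolase cofactor PSAP, the cholesterol transporter NPC1, and the V-ATPase genes ATP6V1G1, ATP6AP1, ATP6V1E1 and ATP6V0D1. Cathepsin C (CTSC) was the member that fell. The response was wide in this comparison: 13.6% of the 6458 genes tested rose and 8.32% fell, or 880 and 537 genes, and with quantile normalization these were 777 and 720. Of the lysosomal genes 24.4% rose and 2.44% fell. Their median log2 change was 0.24, beside 0.03 for all genes tested. With the replicate number as a block, which the labels give as a batch, 13 rose and 1 fell, beside 33.1% of all genes called. The genes added were CTSB (log2 change 0.29, adjusted p = 0.0290 with the block and 0.242 without), ATP6V0E1 and ATP6V1D. The number ending each library description in the labels was never shared by controls and knockdowns in replicates 1 and 2. In siVPS37A, siVPS37AB and siVPS37BC no library of any replicate shared it with siCTRL. A fit with a term for it links those groups to siCTRL only through other groups. In siVPS37ABC 16 members rose and 2 fell with this term, beside 30.1% of all genes called in either direction. ATP6V0D1 (0.30) and ATP6V1G1 (0.19) were no longer among those that rose.

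By class, 5 of 21 hydrolases and cofactors rose and 1 fell (median log2 change 0.17), 1 of 6 membrane proteins rose and none fell (median 0.18), and 4 of 14 V-ATPase genes rose and none fell (median 0.40). Within the hydrolases the glycosidases and sulfatases had 2 of 6 up and the proteases 2 of 8 up and 1 down. None of the 4 lipid hydrolases (PPT1, ASAH1, SMPD1 and LIPA) passed the test, and their log2 changes ran from -0.25 to -0.17. In 18 members all 3 siVPS37ABC libraries lay above all 3 siCTRL libraries, and in 2 members all 3 lay below. Over all genes tested these arrangements were met by 20.8% and 14.4%.

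NEU1, the lysosomal sialidase, which removes terminal sialic acid from glycans, had the highest log2 change of the members. Its level was 24.9, 26.1 and 24.4 TPM in siCTRL replicates 1 to 3 and 55.8, 59.99 and 69.4 TPM in siVPS37ABC. The groups were far apart, and even the lowest siVPS37ABC library exceeded every library of NT and of the single knockdowns. The means of 25.1 ± 0.882 and 61.7 ± 6.94 TPM (SD, n = 3) stand in a ratio of 2.46, and the log2 change was 1.26 ± 0.14 (SE, limma adjusted p = 3.41e-07). NEU1 acts in a complex with the protective protein CTSA and the beta-galactosidase GLB1. CTSA stood at 172, 157 and 122 TPM in siCTRL and 188, 199.8 and 196 TPM in siVPS37ABC (log2 change 0.39 ± 0.19, adjusted p = 0.146), and GLB1 had a log2 change of 0.17 ± 0.14 (adjusted p = 0.416). Neither partner passed the threshold.

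GLA, the alpha-galactosidase that cleaves terminal galactose from glycolipids, measured 66.7, 65.3 and 91.1 TPM in siCTRL and 126, 150.4 and 179 TPM in siVPS37ABC. All 3 knockdown libraries were above the highest control, and the log2 change was 1.02 ± 0.21 (adjusted p = 7.11e-04). PSAP encodes prosaposin, the precursor of the saposins that present sphingolipids to their hydrolases. Its siCTRL libraries held 342, 409 and 362 TPM and its siVPS37ABC libraries 572, 647 and 648 TPM, for a log2 change of 0.75 ± 0.12 (adjusted p = 7.88e-05). PSAP in siVPS37ABC was above every other library of the 27. The activator GM2A (-0.20) and the lipid-binding protein NPC2 (-0.09) did not pass the test.

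Among the proteases, CTSZ (cathepsin Z, a carboxypeptidase) measured 39.6, 25.4 and 24.8 TPM in siCTRL and 57.7, 53.6 and 62.8 TPM in siVPS37ABC, with a log2 change of 0.96 ± 0.16 (adjusted p = 7.41e-05). One siCTRL library was well above the other two, and still no siCTRL library reached the siVPS37ABC range. CTSD (cathepsin D, an aspartic protease) went from 660.4, 671 and 739 TPM to 1171, 1190.3 and 928 TPM, a log2 change of 0.66 ± 0.13 (adjusted p = 5.33e-04). CTSC, the dipeptidyl peptidase that activates serine proteases of immune cells, went the other way: 16.7, 16.6 and 24.1 TPM in siCTRL and 7.17, 11.7 and 14.7 TPM in siVPS37ABC. Its groups did not overlap, and the log2 change was -0.76 ± 0.22 (adjusted p = 0.0148). The fall of CTSC rested on few libraries: without siCTRL replicate 3 or without siVPS37ABC replicate 1 it no longer passed (adjusted p up to 0.131).

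NPC1, which exports cholesterol from the lysosome, measured 11.2, 13.4 and 12.2 TPM in siCTRL and 16.4, 25.3 and 29.1 TPM in siVPS37ABC. The spread inside the knockdown was wide, its lowest library lying nearer to the controls than to its own highest, and the log2 change was 0.86 ± 0.18 (adjusted p = 0.00119). The structural membrane glycoproteins of the lysosome did not pass the test, with log2 changes of -0.03 for LAMP1 and 0.22 for LAMP2. Nor did the calcium channel MCOLN1 (0.24), the receptor SCARB2 (0.14) or the tetraspanin CD63 (0.10).

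In the V-ATPase the members that rose came from both sectors and the accessory part. ATP6V1E1, a V1 stalk subunit, measured 151, 141 and 148 TPM in siCTRL and 214, 223 and 207 TPM in siVPS37ABC (log2 change 0.55 ± 0.12, adjusted p = 0.00216). ATP6AP1, the accessory subunit Ac45, measured 120.1, 96.2 and 101 TPM in siCTRL and 144, 157 and 164 TPM in siVPS37ABC (log2 change 0.55 ± 0.13, adjusted p = 0.00221). Both were above all controls in every knockdown library, with narrow spreads. ATP6V0D1, the V0 subunit that links the rotor to V1, went from 78.3, 71.7 and 87.8 TPM to 121, 112 and 91.8 TPM (0.44 ± 0.15, adjusted p = 0.0375). ATP6V1G1, the other stalk subunit, went from 203, 179 and 190.3 TPM to 421, 319 and 200.2 TPM (0.65 ± 0.22, adjusted p = 0.0369). Its siVPS37ABC replicate 3 lay inside the control range, so the groups overlapped. These last 2 calls were weak: ATP6V0D1 lost its call on leaving out siCTRL replicate 1 or 2 or siVPS37ABC replicate 1 or 2 (adjusted p up to 0.150), and ATP6V1G1 on leaving out any siCTRL replicate or siVPS37ABC replicate 1 or 2 (up to 0.239).

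Of the 14 pump genes 11 had a positive log2 change. The membrane subunit ATP6V0E1 had a log2 change of 0.44 ± 0.16 (adjusted p = 0.0540), and ATP6V1D 0.43, ATP6V1H 0.42, ATP6V1B2 0.38 and ATP6V0B 0.35 also missed the threshold. With the block ATP6V0E1 (adjusted p = 0.0174) and ATP6V1D (adjusted p = 0.0150, against 0.0792 without) passed it, so that 6 of the 14 rose. The catalytic subunit ATP6V1A (-0.05) and the proton-carrying ring subunit ATP6V0C (-0.05) stayed near 0, and the accessory subunit ATP6AP2, the prorenin receptor, had -0.20. The median over the 14 V-ATPase genes, set against the siCTRL mean of each gene, was 0.30, 0.25 and 0.43 in siVPS37ABC replicates 1 to 3 and 0.33, 0.29 and 0.41 in siVPS37AB. It lay between -0.10 and 0.03 in the 6 NT and siCTRL libraries. The hydrolase median behaved less evenly, at -0.04, 0.01 and 0.29 in siVPS37ABC, so that only replicate 3 stood clear of siCTRL. NT replicate 3 was higher still, at 0.36. Replicate 3 of siVPS37ABC was the highest of all 27 libraries in 13 of the 41 members, and replicate 3 of siVPS37A in 12. The medians over all genes tested were also highest in replicate 3 of every group, up to 0.15.

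**Figure D1:**
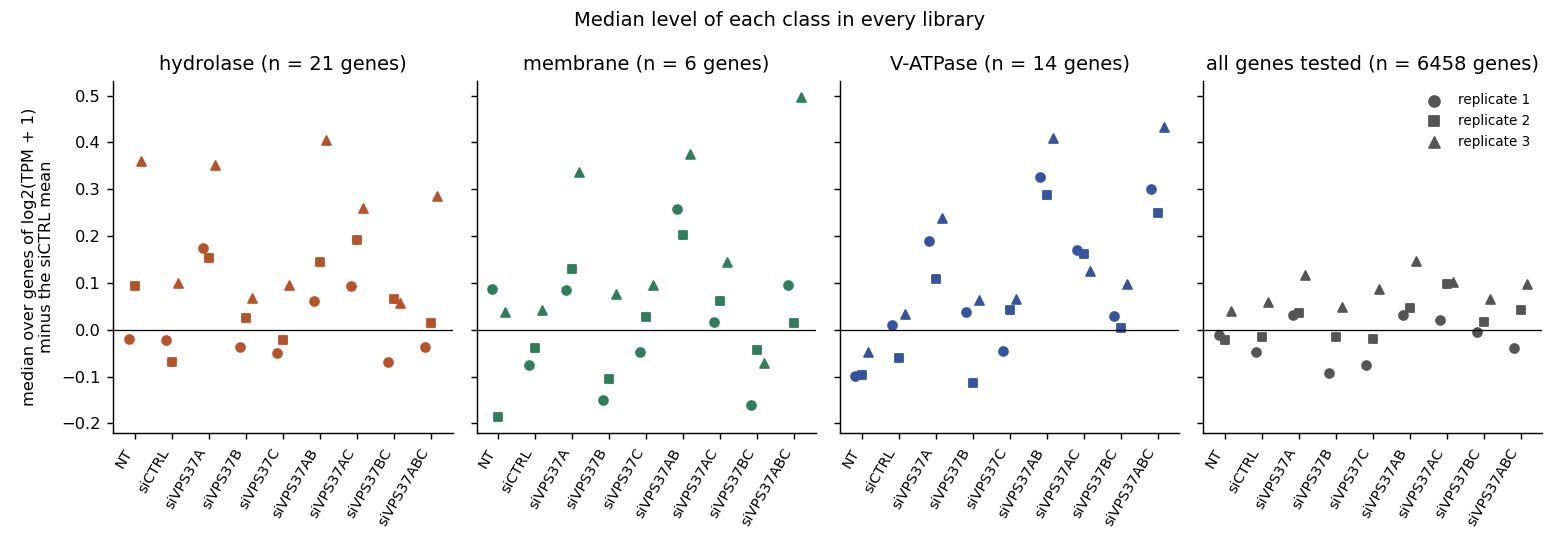
Median over the genes of each class of log2(TPM + 1) minus that gene's siCTRL mean, 1 point per library, with the symbol giving the replicate number; the 9 groups are on the x axis. The V-ATPase medians of siVPS37AB and siVPS37ABC (0.25 to 0.43) lie above those of every NT and siCTRL library, while the hydrolase medians of siVPS37ABC run from -0.04 to 0.29.

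**Figure D2:**
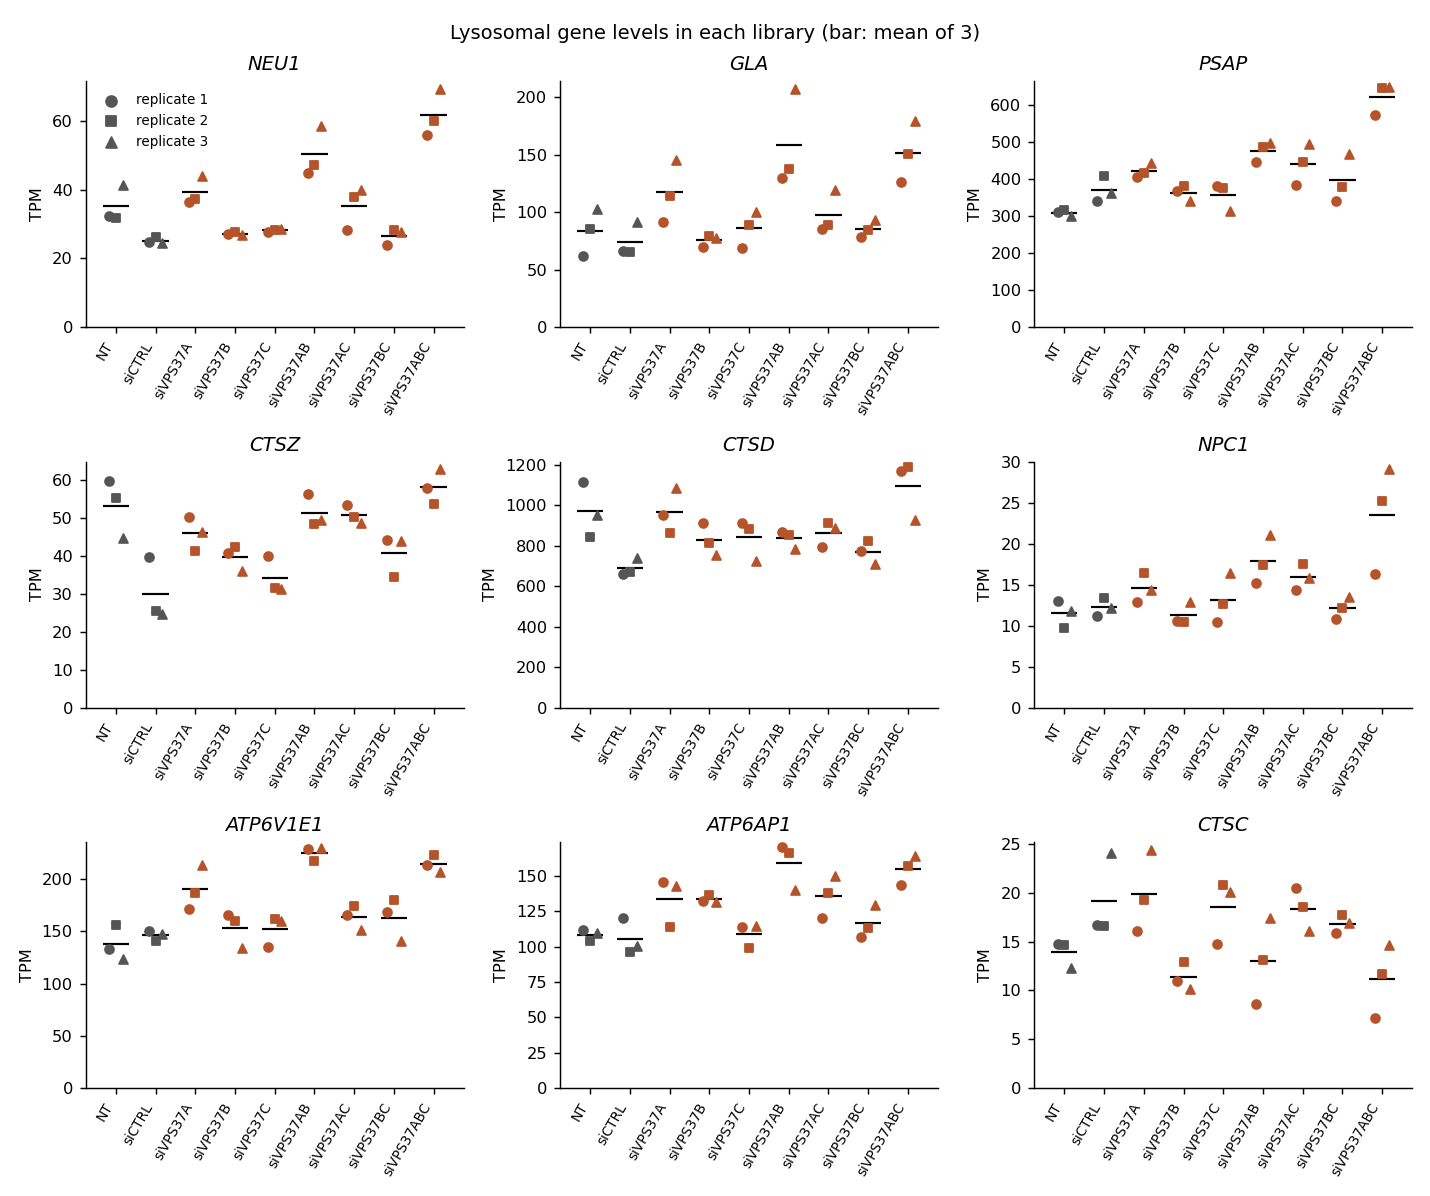
Levels in TPM (y axis, from 0) of 9 lysosomal genes in each library of the 9 groups (x axis), with replicate numbers as symbols and the group mean as a bar. NEU1 reaches 55.8 to 69.4 TPM in siVPS37ABC against 24.4 to 26.1 TPM in siCTRL, and CTSZ and CTSD are higher in NT than in siCTRL.

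The promoters of these genes were searched for the E-box named above, since several members moved together. RefSeq promoters (GRCh38.p14, 250 bases before to 50 bases after the annotated start) matched 34 of the 46 genes by symbol. The palindrome CACGTG, which reads alike on both strands, occurred in 11 of them (32.4%), in 13.7% of tested genes with a promoter and in 8.77% of all promoters in the table. The longer GTCACGTG, which contains it and was searched on both strands, occurred in 9 members (26.5%), in 5.73% of tested genes and in 2.93% of all. The whole 10-base palindrome GTCACGTGAC occurred in ATP6V1G1, GAA and MCOLN1 (8.82% of members with a promoter), in 1.21% of tested genes and in 0.421% of all. Of the 10 members that rose, 9 had a promoter in the table and 4 of these held CACGTG: NEU1, CTSD, ATP6V0D1 and ATP6V1G1. Among these 4 only NEU1 also rose against NT, as given below. CACGTG was absent from the windows of GLA, CTSZ, NPC1, ATP6AP1 and ATP6V1E1, of which all but CTSZ also rose against NT. Of all tested genes that rose in siVPS37ABC, 12.2% held it, and of those that fell 15.3%. The 4 risen members' sites are shown with 2 sites of members that did not pass the test, GAA and LAMP1, in 50-base windows written 5′ to 3′ along each gene. Capitals mark CACGTG and the adjoining bases that continue the 10-base palindrome. In NEU1 the CACGTG begins 126 bases before the start of the gene. The CTSD site begins at 47, the ATP6V0D1 site at 59 and the ATP6V1G1 site at 58. The GAA site shown begins at 76 and the LAMP1 site shown at 28. GAA holds the same 10 bases again at 31, and LAMP1 holds further matches of CACGTG.
NEU1, chr6:31862920-31862969, minus strand: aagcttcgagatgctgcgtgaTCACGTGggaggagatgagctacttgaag
CTSD, chr11:1763947-1763996, minus strand: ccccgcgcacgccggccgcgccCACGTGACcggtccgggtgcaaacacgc
ATP6V0D1, chr16:67481189-67481238, minus strand: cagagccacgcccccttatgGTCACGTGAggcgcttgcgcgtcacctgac
ATP6V1G1, chr9:114587689-114587738, plus strand: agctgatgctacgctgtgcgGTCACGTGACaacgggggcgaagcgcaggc
GAA, chr17:80101483-80101532, plus strand: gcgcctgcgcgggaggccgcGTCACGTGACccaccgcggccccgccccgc
LAMP1, chr13:113297189-113297238, plus strand: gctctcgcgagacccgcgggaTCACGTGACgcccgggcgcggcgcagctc

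The values of some members with and without the palindrome follow, chosen after they were seen. ATP6V1G1, GAA and MCOLN1 carry the full 10 bases, GAA more than once. Their log2 changes in siVPS37ABC were 0.65, 0.38 and 0.24 (limma adjusted p = 0.0369, 0.343 and 0.291). The ATP6V1G1 call was weak, as given above. Differences between these genes were not tested, nor was a part of the palindrome in them. LAMP1, whose promoter holds several matches, had -0.03 (adjusted p = 0.923). GLA, without a match in its window, had 1.02.

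Part of these calls depended on the reference, since some members were lower in siCTRL than in untransfected cells. Against NT, siCTRL had 3 members down and none up, beside 2.17% and 1.01% of all genes tested (limma). At an unadjusted p under 0.05 there were 7 members down and 2 up, beside 10.2% and 6.95%. CTSZ stood at 59.7, 55.1 and 44.6 TPM in NT, above all siCTRL libraries (log2 change -0.83 ± 0.16, adjusted p = 0.00314). ATP6V0D1 stood at 108, 104 and 147 TPM in NT (-0.57 ± 0.15, adjusted p = 0.0320), and CTSD at 1117, 843 and 951 TPM (-0.48 ± 0.13, adjusted p = 0.0370). NEU1, at 32.2, 31.7 and 41.5 TPM in NT, was also above siCTRL in every library, with a log2 change of -0.46 ± 0.14 (adjusted p = 0.0766, and 0.0115 with the replicate number as a block). The CTSD call was lost on leaving out any library but NT replicate 2 (adjusted p up to 0.198), the ATP6V0D1 call on leaving out NT replicate 1 or 3 or siCTRL replicate 1 or 2 (up to 0.204), and the CTSZ call on none.

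With NT as the reference, siVPS37ABC had 13 members up and 1 down, beside 14.3% and 11% of all genes tested. Of these, 6 rose against both references: NEU1 (0.80 against NT), GLA (0.87), PSAP (1.00), NPC1 (0.94), ATP6V1E1 (0.64) and ATP6AP1 (0.51). The share of all genes that rose against both is not given, and both comparisons use the same siVPS37ABC libraries. The other four that rose against siCTRL did not pass against NT. CTSZ had a log2 change of 0.13 (adjusted p = 0.585) and CTSD 0.18 (adjusted p = 0.341), so both levels in siVPS37ABC were near those of untransfected cells. ATP6V1G1 had 0.46 (adjusted p = 0.138), and ATP6V0D1 changed sign to -0.13 (adjusted p = 0.561). CTSC was not called either (-0.34, adjusted p = 0.280), its NT level of 13.9 ± 1.39 TPM (SD, n = 3) lying between siCTRL and siVPS37ABC. Conversely, 7 members rose against NT alone: the proteases CTSL and CTSA, the membrane glycoprotein LAMP2, and the pump subunits ATP6V0E1, ATP6V1B2, ATP6V1D and ATP6V1H. The sphingolipid activator GM2A fell against NT (-0.62, adjusted p = 0.0101).

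**Figure D3:**
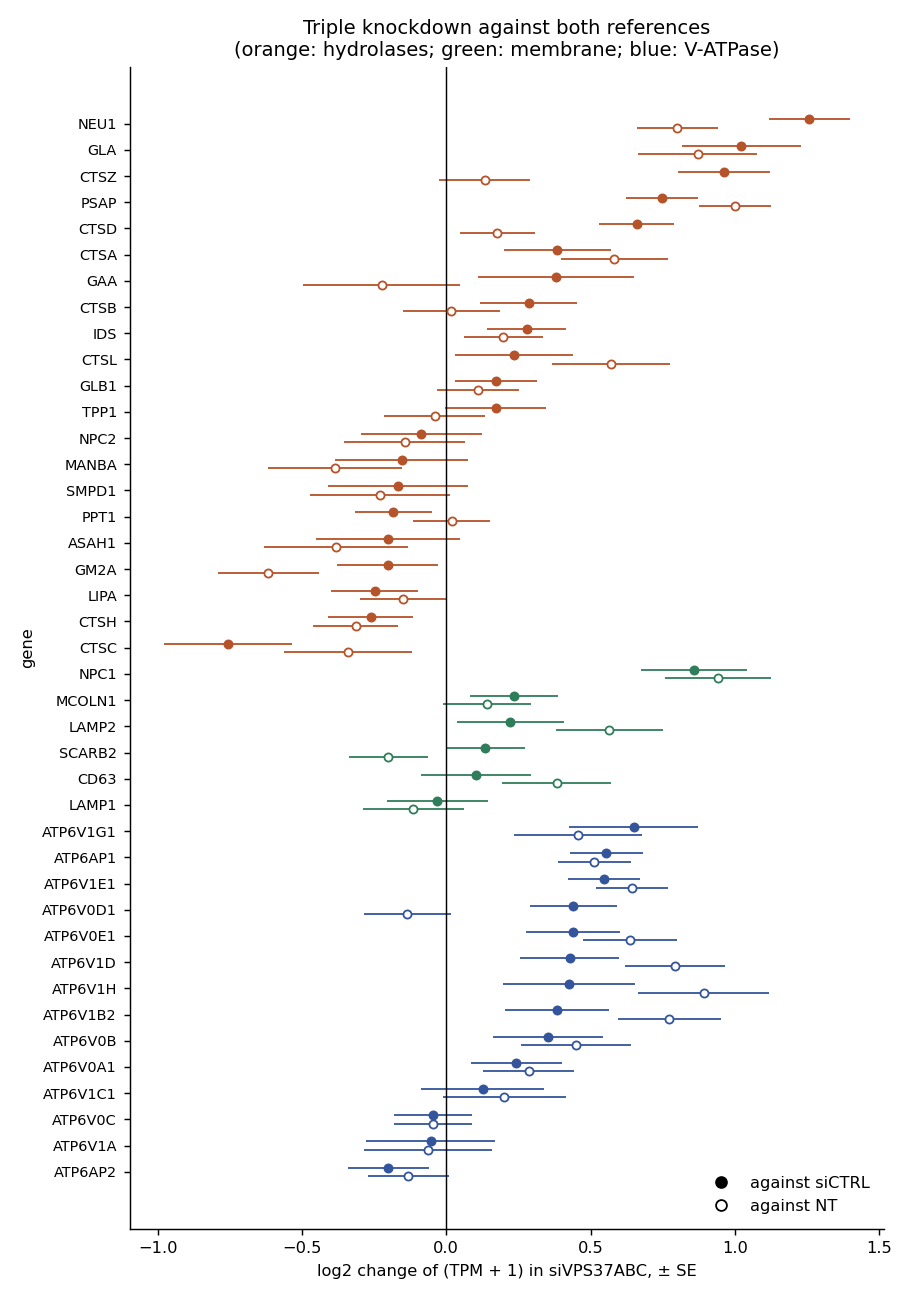
Log2 change of each tested member in siVPS37ABC (x axis, ± SE) against siCTRL (filled) and against NT (open), with genes on the y axis ordered by class and by the change against siCTRL. NEU1, GLA, PSAP, NPC1, ATP6V1E1 and ATP6AP1 are well above 0 with both references, whereas CTSZ moves from 0.96 to 0.13 and ATP6V0D1 from 0.44 to -0.13.

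The double knockdown of VPS37A and VPS37B gave 7 members up and none down, beside 11.2% and 3.61% of all genes tested. NEU1 measured 44.9, 47.3 and 58.6 TPM (log2 change 0.96 ± 0.14, adjusted p = 3.51e-05) and GLA 130.1, 138 and 207 TPM (1.06 ± 0.21, adjusted p = 8.95e-04). CTSZ rose by a log2 of 0.79 (adjusted p = 0.00122) and ATP6V1E1, at 229, 217 and 230.3 TPM, by 0.62 (adjusted p = 0.00126). ATP6AP1 (0.59), ATP6V0E1 (0.47, adjusted p = 0.0491) and PSAP (0.36, adjusted p = 0.0477) also rose, the last 2 close to the threshold. The ATP6V0E1 call was lost on leaving out any of the 6 libraries (adjusted p up to 0.145) and the PSAP call on leaving out any but siCTRL replicate 2 (up to 0.163). With the replicate number as a block, 14 members were called (12 up and 2 down), beside 25.6% of all genes. The block added NPC1, ATP6V0B, ATP6V0D1, ATP6V1D and ATP6V1G1 to those that rose (adjusted p = 0.0114 to 0.0336 with the block and 0.0566 to 0.138 without). It added CTSC (-0.55, adjusted p = 0.0344, against 0.0981) and PPT1 (-0.33, adjusted p = 0.0354, against 0.103) to those that fell. With the library-number term 14 members were called, all up, beside 18.9% of all genes called in either direction. No siVPS37AB library shared that number with siCTRL, so this fit links the groups only through others. Against NT, 13 members rose and none fell, beside 13% and 6.01% of all genes. Of the 7 called against siCTRL 6 were among the 13, and CTSZ had -0.04. The share of all genes that rose against both references is not given, and both comparisons use the same siVPS37AB libraries. The chloride-proton exchanger CLCN7, below 10 TPM on average, measured 5.6, 5.31 and 5.91 TPM in siCTRL and 7.78, 8.56 and 14.4 TPM in siVPS37AB. With no filter on low values its log2 change was 0.72 ± 0.23 (adjusted p = 0.0391), where 10.9% of the 10470 genes rose.

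Depleting VPS37A alone gave 2 members up and none down, beside 1.19% and 0.635% of all genes tested. They were NEU1, at 36.3, 37.3 and 44.1 TPM (log2 change 0.62 ± 0.14, adjusted p = 0.0202), and CTSZ, at 50.2, 41.2 and 46.3 TPM (0.63 ± 0.16, adjusted p = 0.0364). Both groups lay above all siCTRL libraries, and both calls depended on single libraries: NEU1 lost its call without siCTRL replicate 1 or 3 or siVPS37A replicate 3 (adjusted p up to 0.107) and CTSZ without siCTRL replicate 2 or 3 or siVPS37A replicate 1 or 3 (up to 0.196). GLA had a larger log2 change than NEU1, 0.64, with a wider spread of 91.6, 114 and 146 TPM (adjusted p = 0.121). With the block 5 members rose, beside 6.33% of all genes called. The block added GLA, which was higher in 3 of 3 same-numbered pairs (adjusted p = 8.96e-04 with the block), CTSD (0.48, adjusted p = 0.0159, against 0.0526 without) and SMPD1 (0.51, adjusted p = 0.0492, against 0.361). The sign of the change was positive in 38 of 41 members, among them all 14 V-ATPase genes, and in 60.2% of all genes tested. Against NT, NEU1 in siVPS37A overlapped the untransfected libraries, and CTSZ had -0.20.

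Depleting VPS37B alone gave no member past the threshold in either direction, beside 0.929% and 0.79% of all genes tested (limma). At an unadjusted p under 0.05 there were 4 members up and 4 down, beside 8.41% and 7.66%. The smallest p values belonged to CTSC, with a log2 change of -0.69 ± 0.22 (adjusted p = 0.109), and to LAMP2, with -0.53 ± 0.18 (adjusted p = 0.131). With the block 4 members were called, beside 9.4% of all genes: CTSZ up (0.42, adjusted p = 0.0387, against 0.172 without), and CTSC (adjusted p = 0.0239), LAMP2 (adjusted p = 0.0319) and NPC2 (-0.45, adjusted p = 0.0319, against 0.286) down. NEU1 stayed at 27.02, 27.6 and 26.8 TPM, just above the siCTRL libraries.

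VPS37C depletion likewise left no member past the threshold, beside 0.108% up and 0.387% down of all genes (limma). At an unadjusted p under 0.05 there was 1 member up and 1 down, beside 3.64% and 4.44%. Its smallest p values were those of ATP6V0A1, a membrane subunit of V0 (-0.40 ± 0.16, adjusted p = 0.438), and CTSD (0.28 ± 0.13, adjusted p = 0.582). In siVPS37BC no member was called, beside 0.635% up and 0.65% down (limma). At an unadjusted p under 0.05 there were 2 members up and 2 down, beside 7.45% and 4.91%. With the block 3 members were called, beside 4.38% of all genes: CTSZ up (adjusted p = 0.0395), and ATP6V0A1 (adjusted p = 0.0369) and CD63 (-0.53, adjusted p = 0.0333, against 0.222 without) down. ATP6V0A1 was low there as well, at 32.0, 31.4 and 34.5 TPM against 47.5, 46.2 and 46.9 TPM in siCTRL (-0.51 ± 0.16, adjusted p = 0.128), and CTSZ had 0.46 ± 0.16 (adjusted p = 0.207). In siVPS37AC only CTSZ rose, by a log2 of 0.77 ± 0.16 (adjusted p = 0.00529), and none fell, beside 3.07% and 1.33% of all genes. Against NT, CTSZ in siVPS37AC had -0.06. With the block 5 members rose in siVPS37AC and none fell, beside 8.3% and 3.5% of all genes tested. NEU1 was among the 5 (adjusted p = 0.00875 with the block and 0.0616 without). The others added were GLA (0.39, adjusted p = 0.0255, against 0.336), ATP6V0E1 (0.46, adjusted p = 0.0329, against 0.114) and ATP6AP1 (0.36, adjusted p = 0.0456, against 0.106). With the library-number term 10 members were called, all up, beside 19% of all genes called in either direction.

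**Figure D4:**
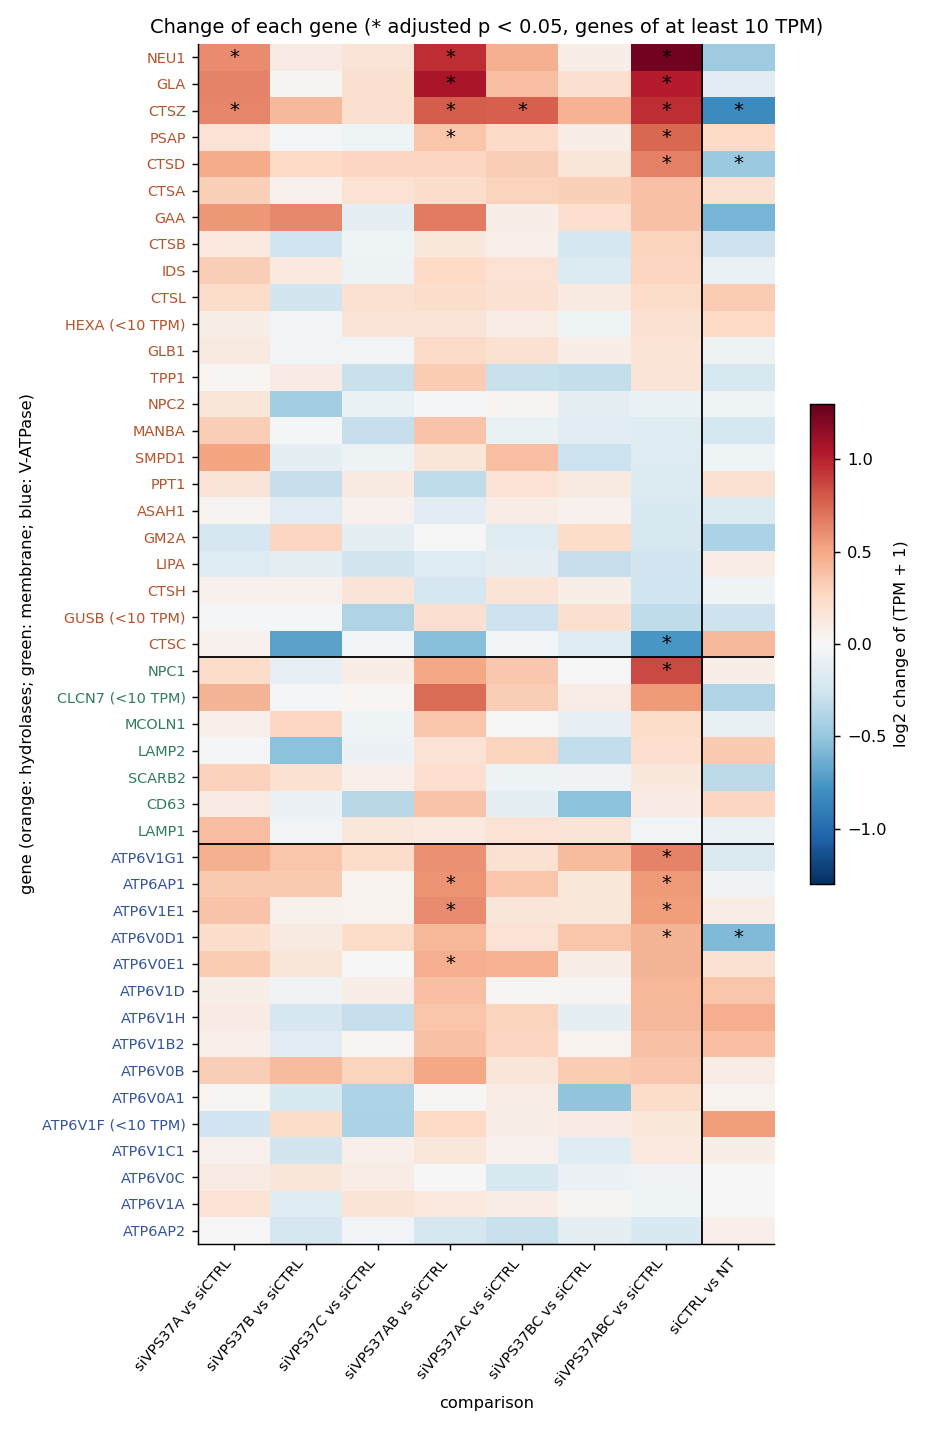
Log2 change of (TPM + 1), in colour from blue (lower) to red (higher), of the 45 listed lysosomal genes (rows, by class) in the 7 knockdowns against siCTRL and in siCTRL against NT (columns), with an asterisk where the adjusted p was under 0.05 among genes of at least 10 TPM. Asterisks are most frequent in siVPS37AB (7, or 17.1% of the tested members, beside 14.8% of all genes tested) and siVPS37ABC (11, or 26.8%, beside 21.9%). The last column shows CTSZ, CTSD and ATP6V0D1 lower in siCTRL than in NT.

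Ordered by group mean, NEU1 was highest in siVPS37ABC (61.7 TPM), followed by siVPS37AB (50.3), siVPS37A (39.2), siVPS37AC (35.3), NT (35.1), siVPS37C (28.3), siVPS37B (27.1), siVPS37BC (26.6) and siCTRL (25.1). Neighbours in that order overlapped except siVPS37AB with siVPS37A, NT with siVPS37C, and siVPS37C with siVPS37B. GLA and the pump genes ATP6V1E1 and ATP6AP1 had siVPS37AB first and siVPS37ABC second, with overlapping libraries. PSAP and NPC1 had siVPS37ABC first.

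The knockdowns were also compared with each other, which leaves siCTRL out. Between siVPS37ABC and siVPS37AB no member was called, beside 0.356% up and 0.681% down of all genes (limma). At an unadjusted p under 0.05 there were 3 members up and 1 down, beside 3.19% and 5.76%. PSAP had the smallest p (log2 difference 0.38 ± 0.12, adjusted p = 0.170), its 3 triple-knockdown libraries all lying above the siVPS37AB libraries of 445, 487 and 497 TPM. CTSD followed with 0.38 ± 0.13 (adjusted p = 0.215), and NEU1 had 0.29 ± 0.14 (adjusted p = 0.549). Against siVPS37AC, NEU1 (0.80 ± 0.14, adjusted p = 0.00117) and PSAP (0.50 ± 0.12, adjusted p = 0.0172) were higher in siVPS37ABC and none was lower, beside 2.46% and 1.89% of all genes. PSAP lost this call without siVPS37AC replicate 1 or siVPS37ABC replicate 2 or 3 (adjusted p up to 0.138). With the block 10 members were called (6 up and 4 down), beside 12.2% of all genes. Those added were GLA, NPC1, ATP6V1D and ATP6V1E1, higher in siVPS37ABC, and CTSC, CTSH, PPT1 and SMPD1, lower (adjusted p = 6.20e-04 to 0.0496 with the block).

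Against siVPS37BC, 11 members were higher in siVPS37ABC and none lower, beside 7.46% and 4.55% of all genes tested. Those with the smallest p were NEU1 (log2 difference 1.183 ± 0.14), PSAP (0.66 ± 0.12), ATP6V0A1 (0.75 ± 0.16, adjusted p = 0.00202) and NPC1 (0.87 ± 0.18). CD63 was among them (0.63 ± 0.19, adjusted p = 0.0277), although its libraries of 433, 471 and 844 TPM overlapped the 315, 318 and 459 TPM of siVPS37BC, and its call was lost without siVPS37ABC replicate 3 (log2 difference 0.33) or siVPS37BC replicate 1 or 2. The remaining members were GLA, CTSD, CTSZ, IDS, ATP6AP1 and ATP6V1E1. Those calls were lost on leaving out single libraries: siVPS37ABC replicate 3 for GLA, siVPS37ABC replicate 2 or siVPS37BC replicate 3 for CTSD, and 4 or 5 of the 6 libraries for the others (adjusted p up to 0.193). With the block 19 members were called (16 up and 3 down), beside 22.4% of all genes. Those added were CTSB, TPP1, LAMP2, ATP6V1D and ATP6V1H, higher in siVPS37ABC, and CTSC, CTSH and GM2A, lower (adjusted p = 6.29e-04 to 0.0448 with the block). For the pair AB, the departure of siVPS37AB from the sum of the 2 single log2 changes was called in no member and in 0% of all genes tested (limma). At an unadjusted p under 0.05 there was 1 member up and 1 down, beside 4.35% and 3.13%. LAMP2 (0.74 ± 0.26, adjusted p = 0.481) and CTSD (-0.46 ± 0.18, adjusted p = 0.540) had the smallest p.

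Lysosomal genes outside the 46 were read from 4 further lists in siVPS37ABC against siCTRL, where 13.6% of all genes tested rose and 8.32% fell. Of 21 other hydrolases and cofactors tested 2 rose, among them the sulfatase GALNS (0.72), and 1, EPDR1, fell (-0.82). These are 9.52% and 4.76%, both under those shares, and the list median was 0.04. In this list 1 gene also fell in each of siVPS37C, siVPS37AC and siVPS37BC, and none in siVPS37A, siVPS37B or siVPS37AB. Of 15 other membrane proteins 5 rose (33.3%) and none fell (median 0.30), led by the amino acid exporter PQLC2 (41.7 ± 8.50 to 73.8 ± 5.86 TPM, SD, n = 3), the cystine exporter CTNS (0.69) and LAPTM4B (0.48). Of 5 other V-ATPase genes none rose and the assembly factor CCDC115 fell (-0.67). Their median log2 change was -0.37, with 2 of 5 positive, against 0.40 in the 14 V-ATPase members. Of 13 genes for sorting of hydrolases to the lysosome 1 rose and 1 fell (7.69% each, under the shares of all genes; median 0.18). IGF2R, the cation-independent mannose 6-phosphate receptor, rose from 9.01 ± 1.00 to 17.3 ± 2.41 TPM (SD, n = 3; log2 change 0.87 ± 0.14, adjusted p = 5.47e-05), and the adaptor GGA2 fell (-0.49, adjusted p = 0.0378). The cation-dependent receptor M6PR had -0.26 (adjusted p = 0.315).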

How the data were processed

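RNA of 27 DLD1 libraries was read by amplicon sequencing with a human AmpliSeq transcriptome panel, per the labels. HTSeq 0.6.0 and DESeq2 1.18.1 are listed with hg19, their roles unstated, per the submitters' processing notes. The authors' deposited table is named as normalized counts, but each column sums to 1000000, and its values were treated as TPM. The unit is read from the values. Multiplied by transcript length (GENCODE RefSeq table, 9475 genes), 44.2 to 53.5% of the 600 lowest values per library fell within 0.05 of a whole step, against 7.2 to 11.3% with lengths shuffled; that step gave the estimated depth. Precision is given as the spread over libraries.

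Values were fitted in limma 3.58.1 (R 4.3.3) as log2(TPM + 1), so changes of low genes are understated, with 1 mean for each of 9 groups, an intensity trend and 18 residual degrees of freedom. P-values were adjusted by Benjamini-Hochberg over the 6458 genes averaging 10 TPM or more in all libraries, with a threshold of 0.05, in 12 comparisons. P-values measure the spread between these libraries. The fit was tested on simulated data. Replicate numbers pair the libraries, because the labels give them as batch. The fit above holds no term for them, so its adjusted p-values leave this pairing out. Deviations from group means correlated at 0.355 on average within a number, with 88% of same-number pairs above 0.1 and the lowest at -0.386. The mean between numbers, -0.175, follows from centring each group on its mean and is no separate support for the pairing. Values with the number as a block are printed where they change a member's call or move a count by over 1.5 times.

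The members and lists were chosen with earlier results of these data known. Values in every library were given for NEU1 and the up to 10 members with the largest change past the threshold in siVPS37ABC against siCTRL and every one that fell. Elsewhere up to 4 members with the smallest p in each direction, or the 2 nearest, were named, and up to 3 genes per further list; other members named were chosen after their values were seen. Promoter windows are RefSeq's, GRCh38.p14. The alternatives were a replicate block, a term for the library number, no filter or 50 TPM, a pseudocount of 8, quantile normalization, only the groups compared, NT as reference and leaving out each library.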

Additional observations from a re-analysis of the deposited data

Results flagged for a closer look

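For 2 members the siVPS37ABC and siVPS37BC libraries lay wholly on opposite sides of the siCTRL libraries, with the difference itself past the limma threshold. This was the rule for flagging them, so neither the separation nor the call is separate support. CD63 and NPC1 also differed in sign with a called difference but were not separated in this way. None of the flagged members' changes against siCTRL passed the threshold in the fit without the block. For ATP6V0A1, a V0 membrane subunit, the log2 changes were 0.24 and -0.51, which differ by 0.75 (limma adjusted p = 0.00202). All 3 siVPS37BC libraries (32.0, 31.4 and 34.5 TPM) lay below all siCTRL libraries, and all 3 siVPS37ABC libraries (51.0, 55.3 and 60.9 TPM) above them, while the NT libraries (57.2, 49.8 and 32.8 TPM) spanned both groups. For IDS, the iduronate sulfatase, the log2 changes were 0.28 and -0.18, which differ by 0.46 (adjusted p = 0.0291). Its siVPS37ABC libraries held 32.6, 33.9 and 36.1 TPM and its siVPS37BC libraries 23.6, 26.6 and 23.8 TPM, while NT ranged from 25.8 to 35.9 TPM across both. The IDS difference lost its call on leaving out siVPS37BC replicate 1 or 3 or siVPS37ABC replicate 2 or 3 (adjusted p up to 0.103), and the ATP6V0A1 difference on none.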

How the results depend on the processing

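Counts are of members called in either direction. With the replicate block they were 5 in siVPS37A, 4 in siVPS37B, 14 in siVPS37AB, 5 in siVPS37AC, 3 in siVPS37BC, and 10 and 19 for siVPS37ABC against siVPS37AC and siVPS37BC; it lost none of the 37 calls and moved no other count of members by over 1.5 times. Over all genes tested the block raised the counts from 118 to 409 in siVPS37A, 111 to 607 in siVPS37B, 32 to 134 in siVPS37C, 956 to 1652 in siVPS37AB, 284 to 762 in siVPS37AC, 83 to 283 in siVPS37BC, 1417 to 2137 in siVPS37ABC, 205 to 572 in siCTRL against NT, 67, 281 and 776 to 213, 789 and 1447 for siVPS37ABC against siVPS37AB, siVPS37AC and siVPS37BC, and 0 to 33 for the departure from the sum. With a term for the library number the member counts were 1 in siVPS37A, 14 in siVPS37AB, 10 in siVPS37AC, 1 in siVPS37BC and 18 in siVPS37ABC. For siVPS37ABC against siVPS37AB and siVPS37AC they were 1 and 12. Over all genes 18.9%, 19% and 30.1% were called in siVPS37AB, siVPS37AC and siVPS37ABC. Controls and knockdowns of replicates 1 and 2 never share this number. In siVPS37A, siVPS37AB and siVPS37BC no library of any replicate shares it with siCTRL. ATP6V0D1 (0.30) and ATP6V1G1 (0.19) lost their siVPS37ABC calls. At 50 TPM, where 23 members remain, counts were 1 in siVPS37A, 4 in siVPS37AB, 0 in siVPS37AC, 7 in siVPS37ABC, and 1 and 6 for siVPS37ABC against siVPS37AC and siVPS37BC. Quantile normalization gave 1 in siVPS37A and 4 for siVPS37ABC against siVPS37AC. Fitting only the groups compared gave 0 in siVPS37A, 0 for siCTRL against NT, and 1 and 7 for siVPS37ABC against siVPS37AC and siVPS37BC, with fewer residual degrees of freedom. Shares of all genes are not given at 50 TPM, with quantile normalization or with only the groups compared, so those counts lack a background. With NT as reference 3 members rose and 1 fell in siVPS37A, beside 4.49% and 2.6% of all genes tested. In siVPS37C none rose and 1 fell, beside 1.98% and 3.56%. In siVPS37AB 13 rose and none fell, beside 13% and 6.01%. In siVPS37AC 6 rose and 1 fell, beside 8.64% and 5.45%. CTSZ then changed sign in siVPS37A (-0.20), siVPS37AB (-0.0417) and siVPS37AC (-0.0579), and ATP6V0D1 in siVPS37ABC (-0.13). The cause of these shifts was not tested.

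On leaving out 1 library at a time, counts ran from 0 to 3 in siVPS37A, 5 to 6 in siVPS37AB, 1 to 2 in siVPS37AC, 0 to 1 in siVPS37BC, 8 to 11 in siVPS37ABC and 1 to 3 in siCTRL against NT. For siVPS37ABC they ran from 1 to 3 against siVPS37AC and from 6 to 11 against siVPS37BC. Over all 6458 genes the counts ran from 50 to 132 in siVPS37A, 591 to 755 in siVPS37AB and 110 to 175 in siVPS37AC. They ran from 32 to 49 in siVPS37BC, 1078 to 1248 in siVPS37ABC and 100 to 221 in siCTRL against NT. For siVPS37ABC they ran from 120 to 284 against siVPS37AC and from 500 to 691 against siVPS37BC. Of the 37 calls, a pseudocount of 8 kept 37, no filter 36, the library-number term 33, quantile normalization 31 and the fit of only the groups compared 22. At 50 TPM 20 calls were kept and 1 was lost. NT as reference, which bears on the 21 calls of knockdowns against siCTRL, kept 12, lost 5 and turned the sign of 4. Members of few reads are limited by depth: HEXA and ATP6V1F, below 10 TPM, and CTSC, which fell in siVPS37ABC and rested on 60 to 415 reads per library.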
